A study of Drosophila melanogaster with 3 samples.

Results

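The Hedgehog signalling pathway was examined through 8 of its core genes, hh, disp, ihog, ptc, smo, fu, Su(fu) and ci, among 18164 genes annotated on the 6 main chromosome arms of Drosophila melanogaster. The genes were taken from a list of names, which was chosen with earlier results of these data known. The measurements were the sites at which the protein CG9727, carrying enhanced GFP at its C-terminal end, was recovered by chromatin immunoprecipitation followed by sequencing with an anti-GFP antibody. Whole embryos of both sexes, aged 0 to 24 h, from a transgenic line carrying that fusion gave 3 biological replicates of 1 group. No other genotype, treatment or age was compared, so the question for these genes is where the fusion protein was recovered and in how many replicates. The sources used here do not say which promoter drives the fusion or how the collections of embryos relate to the replicates, and differences among replicates can be technical. The embryos hold all cell types of a long span of development, and in such bulk material a weak site in many cells and a strong site in few cells cannot be told apart.

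In flies the Hedgehog protein is a secreted signal that sets the polarity of embryonic segments and later patterns the wing and other appendages. Without the ligand, the receptor Patched holds Smoothened inactive, and the zinc finger protein Cubitus interruptus is cut into a repressor of target genes. When Hedgehog binds Patched and its co-receptors, Smoothened becomes active, the kinase Fused is engaged, the hold of Suppressor of fused is relieved, and full-length Cubitus interruptus activates targets that include ptc itself.

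Each gene was searched from 5 kb upstream of its first transcription start site (TSS) to its end for summits, the positions of highest enrichment within peaks. The authors' thresholded list, made by irreproducible discovery rate (IDR), held 7896 peaks, and these were the 7896 strongest by signal of the 30000 peaks in the authors' relaxed pooled list. Of the 8 genes, 4 had an IDR summit in the window, beside 46.6% of 13945 protein-coding genes. These were hh with 2 summits, ihog with 1, ptc with 4 and smo with 2. Only ptc and smo had an IDR summit within 500 bp of a TSS, beside 27.0% of protein-coding genes. Both counts lay near the background of all coding genes. The genes disp, fu, Su(fu) and ci had no IDR summit in the window. In the complete pooled list, 6 of the 8 genes had a summit in the window, beside 73.4% of coding genes, and 4 had one within 500 bp of a TSS, beside 50.1%.

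**Figure D1:**
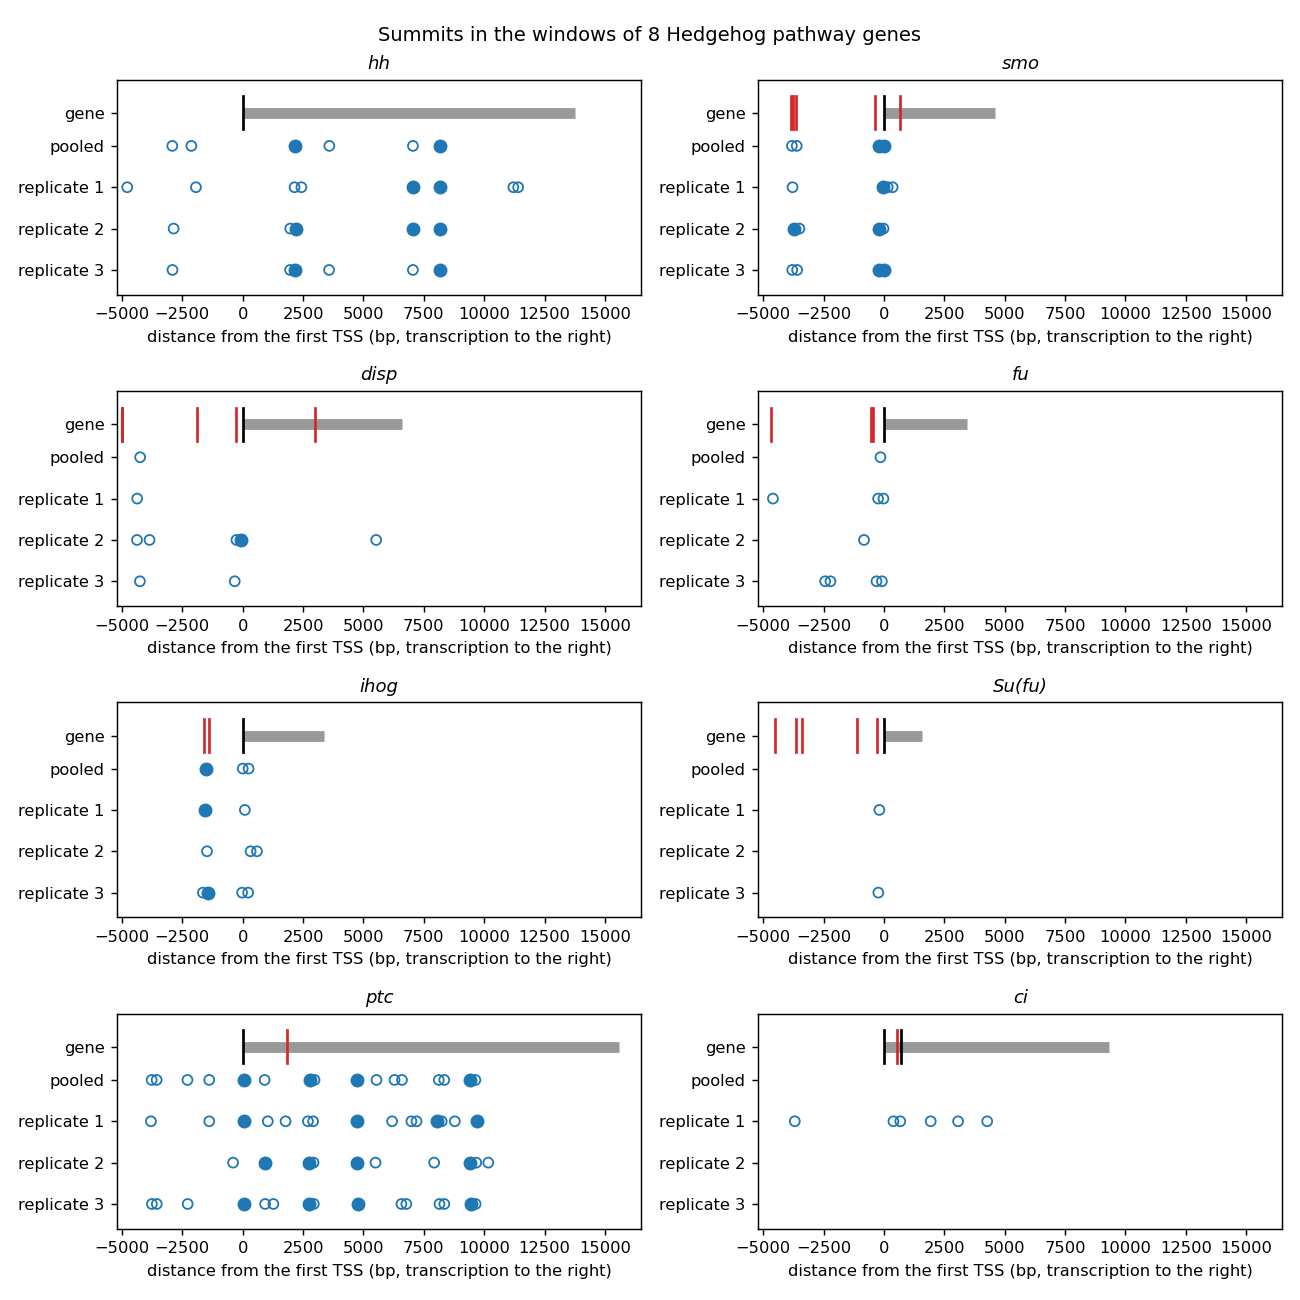
Summits in the windows of the 8 genes, plotted by their distance in bp from the gene's first TSS, with transcription to the right. Grey bars are genes, black ticks their own TSSs and red ticks TSSs of other genes. Each row below is a list, with filled points among its 7896 strongest peaks and open points below. The 4 genes with filled points in the pooled row are hh, ihog, ptc and smo, and ci has points in replicate 1 only.

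The ligand gene hh (FBgn0004644, 3R 23128169 to 23141906, minus strand) was bound inside its introns and not at its promoter. The stronger of its IDR summits lay 8166 bp downstream of the TSS, in a peak 248 bp wide (3R 23133616 to 23133863), with signal 362 at rank 2825 of the pooled list. It had signal 169 at rank 2047 in replicate 1, 59.2 at rank 4723 in replicate 2 and 137 at rank 3074 in replicate 3. The replicate summits lay within 3 bp of the pooled one and all were among the 7896 strongest peaks of their lists. Signal was compared only within a list, where the last of the 7896 strongest peaks had 63.7, 38.4 and 64.3 in replicates 1, 2 and 3. The other IDR summit lay 2154 bp downstream of the TSS (3R 23139500 to 23140003), with signal 195 at rank 6206. It had signal 49.1 at rank 10559 in replicate 1, 53.1 at rank 5388 in replicate 2 and 101 at rank 4585 in replicate 3, so replicate 1 fell below its 7896 strongest. Between them, 7048 bp from the TSS, lay a pooled summit just below the IDR list, at rank 8456 with signal 148. All 3 replicates placed a summit there, each 1 bp from the pooled position, at ranks 7230, 7626 and 13451. No list had a summit within 500 bp of the hh TSS.

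The sequences of these intronic sites are shown because they are the intronic sites of the ligand gene that every replicate matched within 100 bp. They are read from the plus strand of dm6, opposite to hh, and span 201 bp with the summit at position 101. Capitals mark the motif words listed further on, which here are the Pho core GCCAT and the GAGA repeat GAGAG on either strand. A Pho core lies in 25.3% of IDR windows of this width.
hh 8166 bp from the TSS (chr3R:23133640-23133840): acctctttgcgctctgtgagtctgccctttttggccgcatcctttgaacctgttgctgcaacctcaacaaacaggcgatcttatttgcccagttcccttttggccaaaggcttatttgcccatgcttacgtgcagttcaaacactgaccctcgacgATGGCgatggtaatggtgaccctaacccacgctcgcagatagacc
hh 7048 bp from the TSS (chr3R:23134758-23134958): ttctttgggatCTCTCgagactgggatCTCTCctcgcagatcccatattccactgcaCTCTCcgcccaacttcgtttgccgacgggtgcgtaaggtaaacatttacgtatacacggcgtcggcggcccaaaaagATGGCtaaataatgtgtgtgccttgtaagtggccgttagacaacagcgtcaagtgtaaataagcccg
hh 2154 bp from the TSS (chr3R:23139652-23139852): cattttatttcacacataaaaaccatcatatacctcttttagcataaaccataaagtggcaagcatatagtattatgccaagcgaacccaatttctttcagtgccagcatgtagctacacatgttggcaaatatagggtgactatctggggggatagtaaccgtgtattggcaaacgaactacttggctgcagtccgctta
The first window holds the word cttatttgccca at positions 80 and 111, 31 bp apart and on either side of the summit. A direct repeat of 12 bp or longer was found in 3.10% of IDR windows of 201 bp, and this word itself, which was chosen after its sequence was seen, in 2 of 7896. The window 7048 bp from the TSS holds an 11 bp repeat, tgggatctctc, at positions 6 and 22, which spans GAGA repeat words. No share of IDR windows of this width is given for that repeat or for those words. The window 2154 bp from the TSS holds none of the motif words.

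The gene disp (FBgn0029088, 3R 5849697 to 5856311) encodes Dispatched, the membrane protein that releases lipid-modified Hedgehog from the cells that make it. Its window of 11.6 kb had no IDR summit. The single pooled summit, 4246 bp upstream of the TSS at rank 18096, lay nearest to a TSS of CG2017. At the disp promoter the replicates differed. Replicate 2 had a summit 58 bp upstream of the disp TSS with signal 54.2 at rank 5262, among its 7896 strongest. Replicate 3 had a summit 332 bp upstream with signal 28.9 at rank 18162, which lay nearest to the TSS of the neighbouring gene ECSIT. Replicate 1 had none within 500 bp. The disp promoter was thus recovered among the strongest peaks in 1 of 3 replicates.

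The gene ihog (FBgn0031872, 2L 6945464 to 6948808, minus strand) encodes a co-receptor that binds Hedgehog together with Patched. Its IDR summit lay 1511 bp upstream of the TSS (2L 6950067 to 6950570), with signal 183 at rank 6689. That position lies nearer to other genes. It is between the TSSs of Gas41, which encodes a chromatin protein with a YEATS domain, and SA1, which encodes a cohesin subunit. The pooled summit stood 102 bp upstream of the SA1 TSS. The closest TSS to the matching summit was that of SA1 in replicate 1 and that of Gas41 in replicates 2 and 3. The site therefore cannot be assigned to SA1 or Gas41 alone. The site had signal 86.6 at rank 5357 in replicate 1, 21.5 at rank 15830 in replicate 2 and 67.3 at rank 7503 in replicate 3, so replicate 2 stood below its strongest peaks. At the ihog promoter itself the pooled list held weak summits at the TSS and 243 bp downstream, at ranks 18738 and 16885. The strongest replicate summits within 500 bp of that TSS had signal 55.4 at rank 9230, 29.8 at rank 10595 and 33.4 at rank 15617 in replicates 1, 2 and 3. None was among the 7896 strongest of its list. Each replicate therefore had a summit at the ihog promoter below the level of the thresholded list.

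The stretch between the Gas41 and SA1 TSSs is shown because its base composition set it apart from the other sites at these genes. It is read from the plus strand of dm6, the summit is at position 112, and capitals mark TAATTA, the core word bound by many homeodomain proteins.
ihog 1511 bp upstream of the TSS (chr2L:6950208-6950420): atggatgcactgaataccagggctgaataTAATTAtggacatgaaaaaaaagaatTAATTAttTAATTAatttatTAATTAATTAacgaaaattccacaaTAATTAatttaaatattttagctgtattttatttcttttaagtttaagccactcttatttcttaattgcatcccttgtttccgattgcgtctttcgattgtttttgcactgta
The word occurs 6 times within 100 bp of the summit. At least 1 copy was found in 17.7% of IDR windows of that width and 6 or more copies in 1 of 7896, which is this window. Copies that overlap by sharing bases were counted separately. G and C made up 15.8% of the 101 bp around the summit, and 1.28% of IDR summits had a share as low or lower.

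The receptor gene ptc (FBgn0003892, 2R 8649649 to 8665223, plus strand) had the most summits of the 8 genes. Patched is both the Hedgehog receptor and a product of pathway activity, since its gene is a target of Cubitus interruptus. The 4 IDR summits lay 37, 2771, 4739 and 9424 bp downstream of the single annotated TSS, at the promoter and in introns. Windows with 4 or more IDR summits were found for 4.84% of coding genes, whose windows had a median length of 7.17 kb against 20.6 kb for ptc. The summit at 4739 bp (2R 8654244 to 8654608) had signal 775 at rank 839. It had signal 366 at rank 508 in replicate 1, 118 at rank 1898 in replicate 2 and 283 at rank 976 in replicate 3. It was the highest-ranked site of the 8 windows in the pooled list and in each replicate.

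The other ptc IDR summits were weaker and were recovered in fewer replicates. The promoter summit 37 bp from the TSS (2R 8649434 to 8649937) had signal 162 at rank 7729. It had signal 75 at rank 6441 in replicate 1 and 92.6 at rank 5118 in replicate 3. Replicate 2 had no summit within 100 bp, and its nearest to that TSS lay 399 bp upstream at rank 8344. The summit at 2771 bp (2R 8652168 to 8652671, signal 255, rank 4508) had ranks 9180, 4039 and 3753 in replicates 1, 2 and 3. It lay 924 bp upstream of the TSS of lncRNA:CR44281, a non-coding RNA gene on the opposite strand within the ptc window. The summit at 9424 bp (2R 8658821 to 8659324, signal 162, rank 7698) had ranks 6651 and 7365 in replicates 2 and 3 and no match within 100 bp in replicate 1. Replicate 1 had its own summit nearby, 9686 bp from the TSS, at rank 7775. Including these, the complete pooled list held 16 summits in the ptc window, or 7.78 per 10 kb, against 2.46 per 10 kb in the windows of all coding genes. Some of these lay in overlapping peaks, such as those at 2771 and 2973 bp. Several below the IDR list were matched in only 1 replicate or in none, so the count is not one of separate, supported sites.

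The gene smo (FBgn0003444, 2L 277582 to 282167, plus strand) encodes Smoothened, the membrane protein that passes the signal into the cell. It had a pair of IDR summits at its promoter, in overlapping peaks. The stronger lay 218 bp upstream of the TSS (2L 277112 to 277615, signal 271, rank 4165) and the weaker 16 bp upstream (2L 277314 to 277817, signal 161, rank 7757). The stronger had signal 59.4 at rank 4700 in replicate 2 and 117 at rank 3799 in replicate 3, with no match within 100 bp in replicate 1. The weaker had signal 79.0 at rank 6044 in replicate 1, 24.7 at rank 13337 in replicate 2 and 71.9 at rank 6924 in replicate 3. Of the 8 promoters, the smo promoter was the only one with a summit among the strongest peaks of all 3 replicates.

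The smo promoter is shared with CG17078, a gene on the opposite strand with one TSS 370 bp upstream and another 652 bp downstream of that of smo. The stronger summit lay 152 bp upstream of the nearer CG17078 TSS and both summits fell in the 5′ UTR of its transcripts from the other TSS. The sites therefore cannot be assigned to smo alone. Further upstream, 3811 bp from the smo TSS, a pooled summit at rank 8974 lay 56 bp upstream of the TSS of mbm, beside CG11555. All 3 replicates had a match there, at ranks 12214, 7048 and 9840, and only that of replicate 2 was among its strongest peaks.

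The gene fu (FBgn0001079, X 18657755 to 18661204, plus strand) encodes the kinase Fused. Its pooled summit 144 bp upstream of the TSS had signal 96.5 at rank 13021, below the thresholded list. Within 500 bp of the TSS, the strongest summit had signal 54.3 at rank 9440 in replicate 1 and 43.6 at rank 11984 in replicate 3. Both lay nearer to a TSS of CG6659, which diverges from fu. Replicate 2 had none there. The sequence of this promoter is shown as that of a core kinase gene whose only pooled site stood below the threshold. It runs on the plus strand of dm6 to the base before the fu TSS, the summit is at position 151, and capitals mark the TATA box word TATAAA on either strand. Stretches of the same length and placement around all IDR summits held this word in 45.9% of cases.
fu 144 bp upstream of the TSS (chrX:18657461-18657754): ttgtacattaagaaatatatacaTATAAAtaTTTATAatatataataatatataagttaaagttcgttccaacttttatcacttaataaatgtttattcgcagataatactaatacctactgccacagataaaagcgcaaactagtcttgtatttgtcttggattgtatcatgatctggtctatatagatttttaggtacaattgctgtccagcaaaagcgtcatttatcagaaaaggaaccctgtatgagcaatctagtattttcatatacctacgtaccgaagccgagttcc
The TATA box words lie at the far end of the stretch, toward CG6659, and none lies between the summit and the fu TSS.

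Su(fu) (FBgn0005355, 3R 12689873 to 12691468, minus strand) encodes Suppressor of fused, which holds Cubitus interruptus in the cytoplasm. It had no summit in the pooled list. Replicate 1 had a summit 189 bp upstream of the TSS with signal 24.8 at rank 20966, and replicate 3 had one 233 bp upstream with signal 22.3 at rank 23393. Both lay nearest to the TSS of Arp1, a dynactin subunit gene that diverges from Su(fu), and replicate 2 had none in the whole window.

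The transcription factor gene ci (FBgn0004859, 4 47710 to 57041, minus strand) had no IDR or pooled summit in its window of 14.3 kb. Replicate 1 held 6 summits there, at rank 17268 or lower, the strongest of them 33 bp upstream of the inner of the gene's TSSs with signal 30.3. Replicates 2 and 3 held none. The gene lies on chromosome 4, the smallest of the arms, which carried 10 IDR summits over 1.35 Mb, or 7.42 per Mb, against 59.5 per Mb on the other arms. The relaxed lists of replicates 1, 2 and 3 held 69, 22 and 39 summits on that chromosome. Of its 80 protein-coding genes, 10 had an IDR summit in the window. The lack of a thresholded site at ci was thus shared with most genes of that chromosome.

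**Figure D2:**
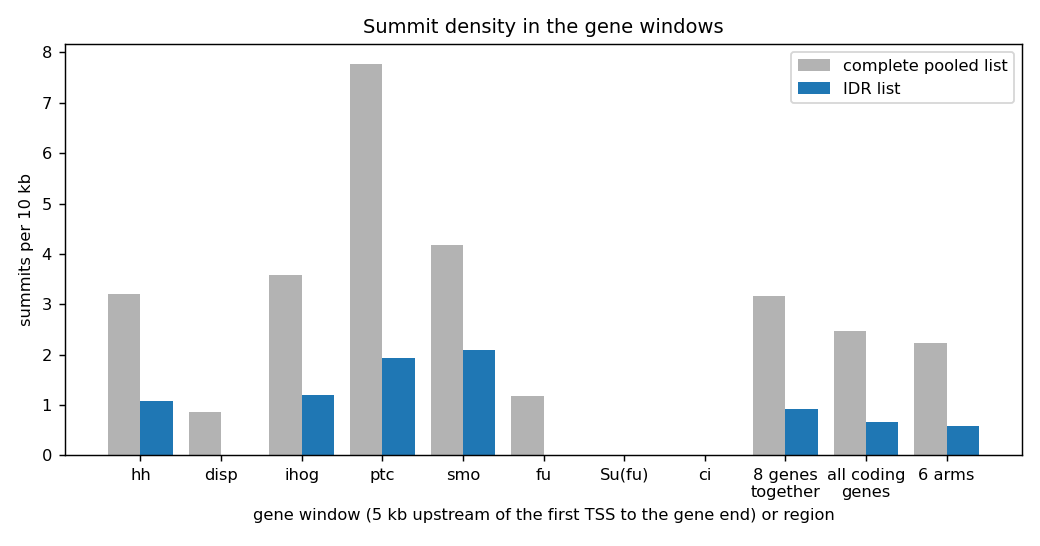
Summits per 10 kb in the window of each gene, in the 8 windows together, in the windows of all protein-coding genes and over the 6 arms. Grey bars are the complete pooled list and blue bars the IDR list. The ptc window has 7.78 pooled and 1.94 IDR summits per 10 kb, smo has 2.09 IDR summits per 10 kb, and Su(fu) and ci have none in either list.

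The 8 windows together spanned 98.2 kb and held 9 IDR summits, or 0.916 per 10 kb, against 0.665 per 10 kb in the windows of all coding genes and 0.590 over the 6 arms. The 7896 strongest peaks of replicates 1, 2 and 3 gave 8, 10 and 9 summits in the windows, a mean of 9.0 ± 1.0 (SD, n = 3). By place, 5 of the 9 IDR summits lay in introns of hh or ptc, 3 upstream of ihog or smo and 1 in the 5′ UTR of ptc. With the window extended to 10 kb upstream the count rose to 15.

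Promoters of 2 of the 8 genes were recovered in each replicate, beside 27.8, 26.4 and 27.0% of coding genes in replicates 1, 2 and 3, and they were not always the same genes. In replicates 1 and 3 these were ptc and smo, and in replicate 2 they were disp and smo.

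Few of the 9 IDR summits were recovered in every replicate. The IDR list was itself made from these replicates, so recovery is in part built in. A summit within 100 bp among the 7896 strongest peaks of all 3 replicates was found for 2 of 9, the hh site at 8166 bp and the ptc site at 4739 bp, beside 62.5% of all IDR summits. The other 7 were each recovered in 2 replicates. Replicates 1, 2 and 3 recovered 5, 6 and 9 of them. Most of these sites ranked low: 5 of the 9 stood among the last 1974 peaks of the IDR list, at rank 5923 or lower, where 9.63% of all IDR summits were recovered in every replicate. Among the first 1974 peaks that share was 96.3% and among the next 1974 it was 85.7%, and each of these groups held 1 site of the 8 genes, recovered in every replicate. At ranks 3949 to 5922 it was 58.5%, and neither of the sites there, the stronger smo site and the ptc site at 2771 bp, was recovered in every replicate. Without replicate 1 the count recovered in every replicate was 6, without replicate 2 it was 5, and in the complete replicate lists it was 6, beside 87.0% of all IDR summits. Of the 22 pooled summits in the windows below the IDR list, 4 had a match within 100 bp in the complete lists of all 3 replicates, beside 21.2% of all pooled summits below the IDR list. These were the hh site at 7048 bp, the ptc sites at 2973 and 9633 bp and the site 3811 bp upstream of smo.

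**Figure D3:**
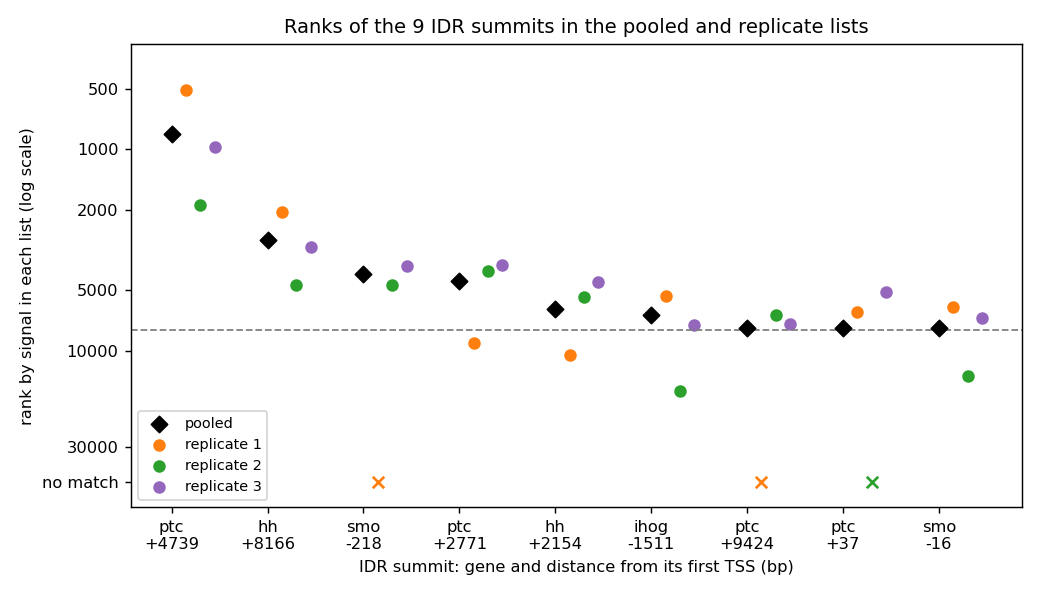
Rank by signal (log axis, strongest at the top) of each IDR summit at the 8 genes in the pooled list (diamonds) and in each replicate (circles); crosses mark replicates with no summit within 100 bp, and the dashed line is rank 7896. The ptc site at 4739 bp and the hh site at 8166 bp are above the line in all 3 replicates, and the others fall below it or lack a match in 1 replicate.

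Of the 12 motif words searched, 5 were found at 1 to 3 of the 9 IDR summits. Exact matches on either strand within 50 bp of a summit were counted, and the share of all IDR summits is given for each word. CGATA, the BEAF-32 site, was found at 3 of 9 (14.8% of all), namely ptc at 2771 and 9424 bp and smo 16 bp upstream. GCCAT, the Pho core, was found at 2 (13.3%), and GAGAG at 1 (10.4%), the ptc promoter. TAATTA was found at 1 (9.85%), the site upstream of ihog, and CAGGTA, the Zelda site, at 1 (2.05%), the ptc site at 4739 bp. The promoter words TATCGATA, known as DRE (1.75%), and GGTCACAC, known as Motif 1 (1.05%), were found at none. The TATA box word TATAAA was found at none of the 9 sites and at 22.2% of all. The CTCF core AGGTGGC (0.925% of all) was absent from the 9 windows. The Grainyhead site, searched as ACCGGTT (0.279% of all), was also absent from them. CGATA is part of the DRE word.

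The word bound by Cubitus interruptus did not coincide with the 9 IDR summits. TGGGTGGTC occurs 6 times in the 8 windows, or 0.611 per 10 kb against 0.0900 over the 6 arms. In the ptc window 3 copies lie 631, 697 and 754 bp upstream of the TSS, a stretch in which sites for this factor are known, and another lies 7605 bp downstream. The upstream copies were 668 to 791 bp from the nearest IDR summit. A copy 2436 bp downstream of the hh TSS lay 282 bp from the hh summit at 2154 bp, and a copy 383 bp downstream of the smo TSS lay 399 bp from an IDR summit. Weak summits of replicate 1, outside its 7896 strongest peaks, lay close to these hh and smo copies. They stood 2429 bp downstream of the hh TSS at rank 16512 and 359 bp downstream of the smo TSS at rank 26649. Replicates 2 and 3 had no summit within 100 bp of either. Neither this word nor its shorter form GGTGGTC, which it contains, was found within 50 bp of any of the 9 IDR summits, and over all IDR summits they were found at 1 and 31 of 7896. Their absence from the 9 thus lay at the background. A word match is a description of the sequence and not a measured site.

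**Figure D4:**
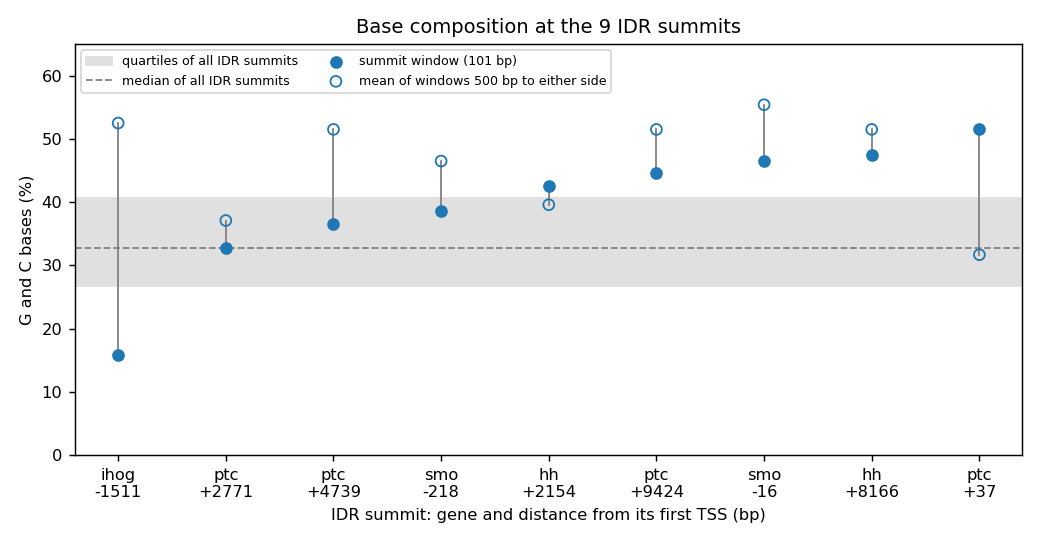
Share of G and C bases (%) in the 101 bp around each IDR summit of the 8 genes (filled points) and the mean of windows 500 bp to either side (open points). The band and dashed line give the quartiles and median of all 7896 IDR summits. The site upstream of ihog is lowest at 15.8%, and only the ptc promoter and the hh site at 2154 bp are richer in G and C than their flanks.

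Across all IDR summits the median share of G and C was 32.7%, with quartiles at 26.7 and 40.6%. The 9 sites had a median of 42.6%, and 5 of them lay above the upper quartile. The hh sites had 47.5% at 8166 bp and 42.6% at 2154 bp. The highest share, 51.5%, was that of the ptc promoter, against 31.7% in its flanks. In 7 of the 9 sites the summit was poorer in G and C than its flanks, as were 77.0% of all IDR summits, so this count lay at the background. Upstream of ihog the share was 15.8% against 52.5% in the flanks.

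The other genes of the pathway were counted from a list of 30, written with earlier results of these data known. Of these, 17 had an IDR summit within 500 bp of a TSS (56.7%), beside 27.0% of all coding genes, and 28 had one in the window (93.3%), beside 46.6%. The replicates had 16, 13 and 15 of these genes bound at a TSS, a mean of 14.7 ± 1.53 (SD, n = 3). These genes also had longer windows, with a median of 15.5 kb against 7.17 kb for all coding genes, and 15 of the 30 had more than 1 TSS, against 26.5% of all coding genes. The part of window length and TSS number in these counts was not tested.

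Genes for the turnover of pathway proteins were bound at a TSS in 6 of 7 cases, beside 27.0% of all coding genes. The strongest was rdx, which encodes the adaptor that brings Cubitus interruptus to a Cullin 3 ligase, with signal 1165 at rank 370 and 17 IDR summits in its window of 70.0 kb. It was followed by slmb, which encodes the F-box protein that starts processing of Cubitus interruptus (signal 279, rank 4013), Smurf, a ubiquitin ligase gene (signal 244, rank 4776), and Roc1a, a RING subunit gene of Cullin ligases (signal 220, rank 5384). Cul1 and SkpA were also bound, Cul1 by a summit nearer to CG12159, and Cul3 was not. The rdx and slmb promoters were recovered in all 3 replicates.

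Of the cytoplasmic complex and kinase genes, 4 of 7 were bound at a TSS, beside 27.0% of all coding genes. The gene gish, which encodes a casein kinase, had signal 3124 at rank 15, and sgg, the GSK3 gene, had signal 1159 at rank 378. The casein kinase gene dco (signal 221, rank 5344) and Pka-C1, the protein kinase A gene (signal 202, rank 5976), were weaker. The gene of the scaffold Costal-2, cos, and the kinase genes CkIalpha and Gprk2 had no IDR summit at a TSS, although cos and CkIalpha had a TSS summit among the strongest peaks of 2 replicates each.

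Genes for the processing and spread of the ligand were bound at a TSS in 5 of 8 cases, beside 27.0% of all coding genes. The glypican gene dlp had signal 749 at rank 903, with 7 IDR summits in the window, and the heparan sulphate synthesis genes sotv and ttv had signal 513 at rank 1734 and 368 at rank 2770. Each of these was recovered at a TSS in all 3 replicates. The third such enzyme gene, botv, and Notum were bound at ranks 6136 and 7731 and were recovered in 1 replicate each. The acyltransferase gene rasp, the glypican gene dally and shf, which encodes a secreted factor, had no IDR summit at a TSS, and dally had 5 in its window. The coactivator gene nej, which encodes CBP, was bound with signal 390 at rank 2543, and the co-receptor gene boi was not bound at its TSSs.

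Of the 6 genes that drive hh or respond to it, only en, whose product activates hh, had an IDR summit within 500 bp of a TSS, beside 27.0% of all coding genes. It stood at rank 6007 and was recovered in all 3 replicates. Its neighbour inv and the target genes wg, dpp, kn and ara had none, while each of the 6 had at least 1 IDR summit in the window, beside 46.6% of all coding genes.

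**Figure D5:**
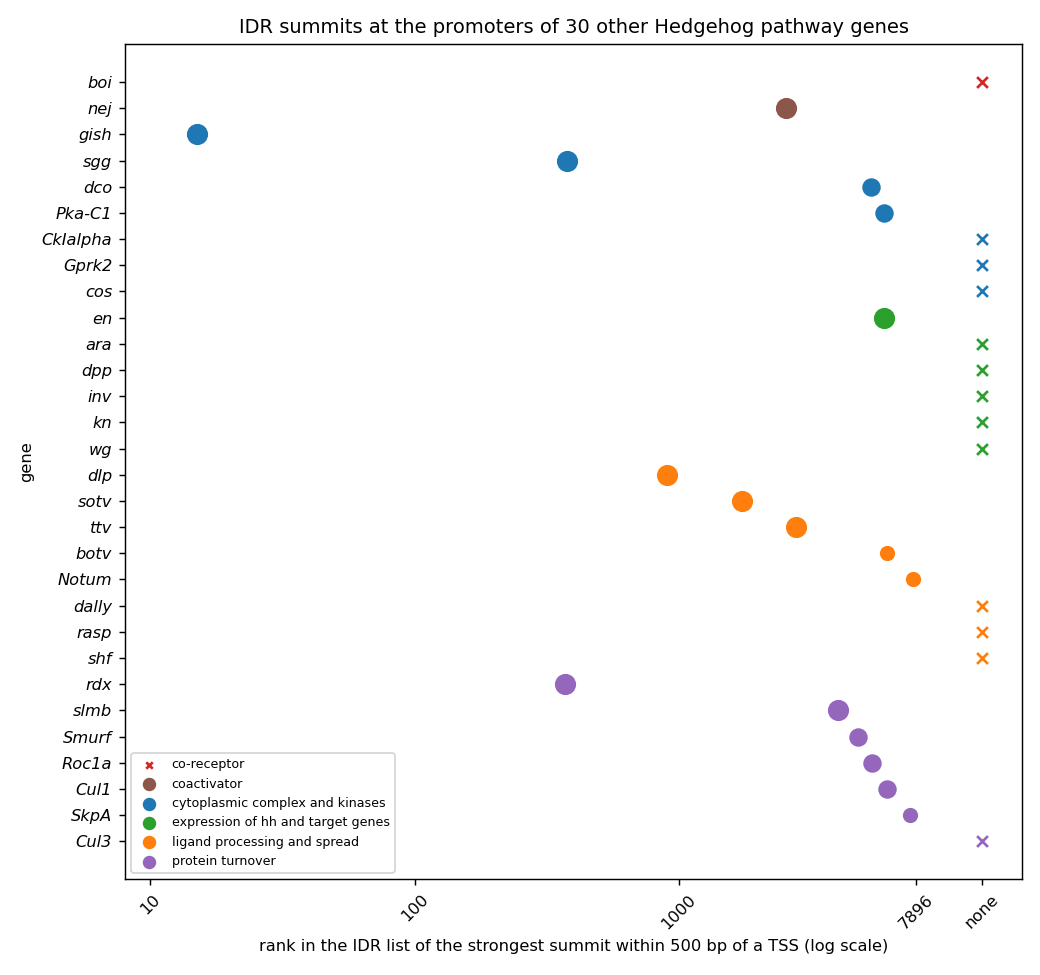
Rank in the IDR list (log axis) of the strongest summit within 500 bp of a TSS for 30 other Hedgehog pathway genes, coloured by class; larger points were recovered at a TSS in more replicates and crosses mark genes with none. The gish promoter stands at rank 15, and rdx and sgg at ranks 370 and 378, while 5 of the 6 genes that drive hh or respond to it are crosses.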

How the data were processed

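Peak lists on dm6 were analysed, as deposited by the authors. Per the file descriptions deposited with each sample, relaxed lists came from each replicate's alignment and 1 control file, a pooled list from the 3 alignments and that control, and the IDR list from these 4 lists. The aligner, the caller of peaks and the IDR threshold were not given in the sources used here. The authors' signal per peak ranked peaks within each list, and the deposited −log10 q value served as an alternative ranking. Read depth is unknown, so no counting error is given. The dm3 lists are not used here.

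Genes came from Ensembl release 115 and sequence from RefSeq, both on the dm6 assembly. All positions count from 1. A match was a summit within 100 bp in the complete list of a replicate. A summit was recovered when a replicate had a match among its 7896 strongest peaks, unless the complete list is named. A promoter was recovered when such a peak had its summit within 500 bp of a TSS. Analysis used Python 3.11.15, numpy 2.4.6 and pandas 2.3.3, and counting was tested on simulated data. With 1 group, no test between groups was made, and values are counts with the SD over 3 replicates. The genes and lists were chosen with earlier results of these data known. The 8 genes, the neighbours nearest to their summits and, of the other pathway genes, the 12 bound with highest signal are named with values, and others by name or by rank. Upstream and TSS windows, matching distance, list length, ranking and replicates were varied.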

Additional observations from a re-analysis of the deposited data

How the results depend on the processing

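Counts were judged by a limit of 1.5 times the main count, and means over replicates by 1 replicate SD, which was 0 for genes bound at a TSS. Of 58 alternative values, 39 stayed within these limits and 19 moved. With no upstream sequence 2 of the 8 genes had an IDR summit in the window, and the replicates averaged 6.33 summits there. With 10 kb upstream the windows held 15 IDR summits and 16.7 per replicate. In the 3948 strongest IDR peaks 2 genes had a summit in the window, 2 summits lay in the windows, 0 genes were bound at a TSS and 7 of the other pathway genes were. With the 3948 strongest peaks per replicate the windows averaged 2.33 summits and 0.333 genes were bound at a TSS. In the complete pooled list the windows held 31 summits, with 4 genes and 26 of the other pathway genes bound at a TSS. In the complete replicate lists 6 of the IDR summits were matched in all 3. The mean number of genes bound at a TSS per replicate was 1.67 within 200 bp, 2.33 within 1 kb and 1.67 with the nearest TSS only. Leaving out a replicate gave 2 to 6 IDR summits recovered in the others, 8.50 to 9.50 summits in the windows and 2.00 genes bound at a TSS. The other settings, among them matching within 50 or 200 bp and ranking by −log10 q, are in the 39. As many of the strongest pooled peaks as in the IDR list gave identical counts, since the lists hold the same peaks. The means of genes bound at a TSS without a replicate were also fixed, since each replicate had 2 such genes. These values could not move, and the 39 include them. No paired analysis was possible because there is 1 group. The lists give no read counts, so the depth of each replicate is unknown.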

Other observations

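Beyond the 5 kb limit, 6 further IDR summits lay between 5 and 10 kb upstream of the first TSS of these genes. For hh and ptc they lay nearest to the gene's own TSS. The ptc site, 5270 bp upstream (2R 8644173 to 8644545), had signal 744 at rank 915 and was recovered in all 3 replicates, and it stood just outside the window. The hh site, 7289 bp upstream (3R 23149027 to 23149277), had signal 432 at rank 2220, a higher rank than either IDR summit inside the hh window, and was recovered in all 3 replicates. The others lay at promoters of neighbouring genes. A pair upstream of disp stood 242 bp upstream and 150 bp downstream of a TSS of CG2017 at ranks 3489 and 4271, the site upstream of ihog stood 57 bp from the CG13775 TSS at rank 4450, and the site upstream of smo stood 149 bp from a CG17075 TSS at rank 503. Of the 6, 4 were recovered in all 3 replicates and the others in 2.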
